A study of Zea mays with 6 samples.

Results

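Genes of iron and zinc acquisition were examined in root tips of maize grown under negative pressure irrigation (NPI), in which the soil itself pulls in water from a reservoir kept under suction, and under a second regime labelled DI. The members were the 78 genes, of 45953 in the deposited table, whose name or product description speaks of nicotianamine, yellow stripe or mugineic acid transport, zinc or metal transporters, metal tolerance proteins, ferric reductases or ferritins. There were 3 libraries of poly(A) RNA per group. The treatment label reads deficit irrigation for DI while the sample descriptions read drip irrigation, and the labels give no cultivar, plant age, stage, dose of water or nutrient supply. Whether each library is a separate plant is not stated, so the p-values speak to the spread among these 6 libraries, and that spread may be technical. The title of the series asks how NPI inhibits root growth and improves water use efficiency.

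Grasses take up iron as a chelate. Their roots build mugineic acids from methionine by way of nicotianamine, release them into the soil through efflux transporters, and take the ferric complex back through yellow stripe transporters, of which maize yellow stripe1 is the founding member. Zinc and ferrous iron enter through ZIP transporters, NRAMP proteins move divalent metals across plasma and vacuolar membranes, metal tolerance proteins load zinc or manganese into compartments, and plastid ferritin stores iron.

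The sets of libraries differed in tightness before any metal gene was considered. Total counts ran from 57792439 to 71957443 per library. Correlations of log2(FPKM + 1) over the 21902 tested genes were 0.936 to 0.957 between DI libraries and 0.814 to 0.901 between NPI libraries, and NPI-2 was closer to each DI library (0.854 to 0.882) than to NPI-1 (0.838) or NPI-3 (0.814). FPKM, the authors' fragment count scaled for transcript length and library size, is the scale of the levels below. The edgeR quasi-likelihood test over all 21902 genes with a mean of at least 1 FPKM called 2 genes higher in NPI and 1 lower at an adjusted p of 0.05. Among tissue markers, root cap genes (4 genes, none at 0 throughout) summed to 28, 141 and 39.7 FPKM in NPI-1 to NPI-3. Their sums were 231, 157 and 110 in DI-1 to DI-3, so NPI-1 and NPI-3 lay below every DI library and NPI-2 did not. Endodermal CASP-like and Casparian strip genes summed to 184 to 295 FPKM in NPI and 148 to 162 in DI (43 genes). In the same order, SCARECROW and SHORT-ROOT type genes summed to 87.6 to 156 and 74.9 to 106 (50 genes). Root hair genes summed to 96.7 to 147 and 133 to 152 (18 genes). Xylem genes summed to 37.6 to 111 and 68.4 to 93.2 (21 genes). Leaf light-harvesting and Rubisco genes summed to 95.2 to 114 and 78.1 to 130 (32 genes). The leaf set had been chosen as one that should be near 0 in root tips, and it was not. No gene name or description matched PLETHORA or WOX5. In bulk tissue, fewer cells of a type and less RNA per cell cannot be told apart, and the part of these shifts in the results below was not tested.

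Of the 78 members, 39 had a mean of at least 1 FPKM and were tested. A further 27 had counts in some library but fell below that level, and 12 had no count in any library, which allows up to 3 counts per library (0.0417 to 0.0519 CPM, counts scaled to library size; counting error only). The tested members spanned means of 1.03 to 115 FPKM with a median of 5.72, beside 7.22 over all tested genes, and the 2 most abundant stood at the 95.4th and 96.4th percentile of tested genes by level. No member changed between the irrigation regimes in the edgeR test: 0 of 39 were called higher, beside 0.00913% of all tested genes, and 0 of 39 lower, beside 0.00457%. Their adjusted p ran from 0.141 to 0.988. At an unadjusted p under 0.05 there were 4 members higher (10.3% of members, beside 12.3% of all tested genes) and 0 lower (beside 8.52%). DESeq2 called 2 members higher (5.13%, beside 6.84% of all tested genes) and 0 lower (beside 4.53%), and limma on log2(FPKM + 1) called 0 in either direction (beside 0.452% of all tested genes higher and 0.178% lower). A p that misses the threshold does not show that these genes were equal in both regimes.

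The direction of the differences was mixed. Of the 39 tested members, 22 had positive and 17 negative log2 differences, with a median of 0.17 beside 0.07 for all tested genes. All 3 NPI libraries lay above all 3 DI libraries in 2 members (5.13%, beside 13.0% of all tested genes), and below them in 1 (2.56%, beside 13.7%). The median difference from the DI mean was -0.23 for the first NPI library, -0.07 for the second and 0.34 for NPI-3. NPI libraries scattered more than DI libraries in 31 of the 39 members (79.5%), as they did in 80.5% of all tested genes. In 12 members NPI-1 and NPI-3 lay together on one side of the DI mean and NPI-2 on the other (30.8%, beside 28.2%). The results are given with and without NPI-2. That library correlated better with each DI library than with NPI-1 or NPI-3, so leaving it out favours larger differences. Over all tested genes, edgeR calls rose from 2 higher and 1 lower to 1457 and 1136 without it. Fits without NPI-2 are therefore a description and not separate support.

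**Figure D1:**
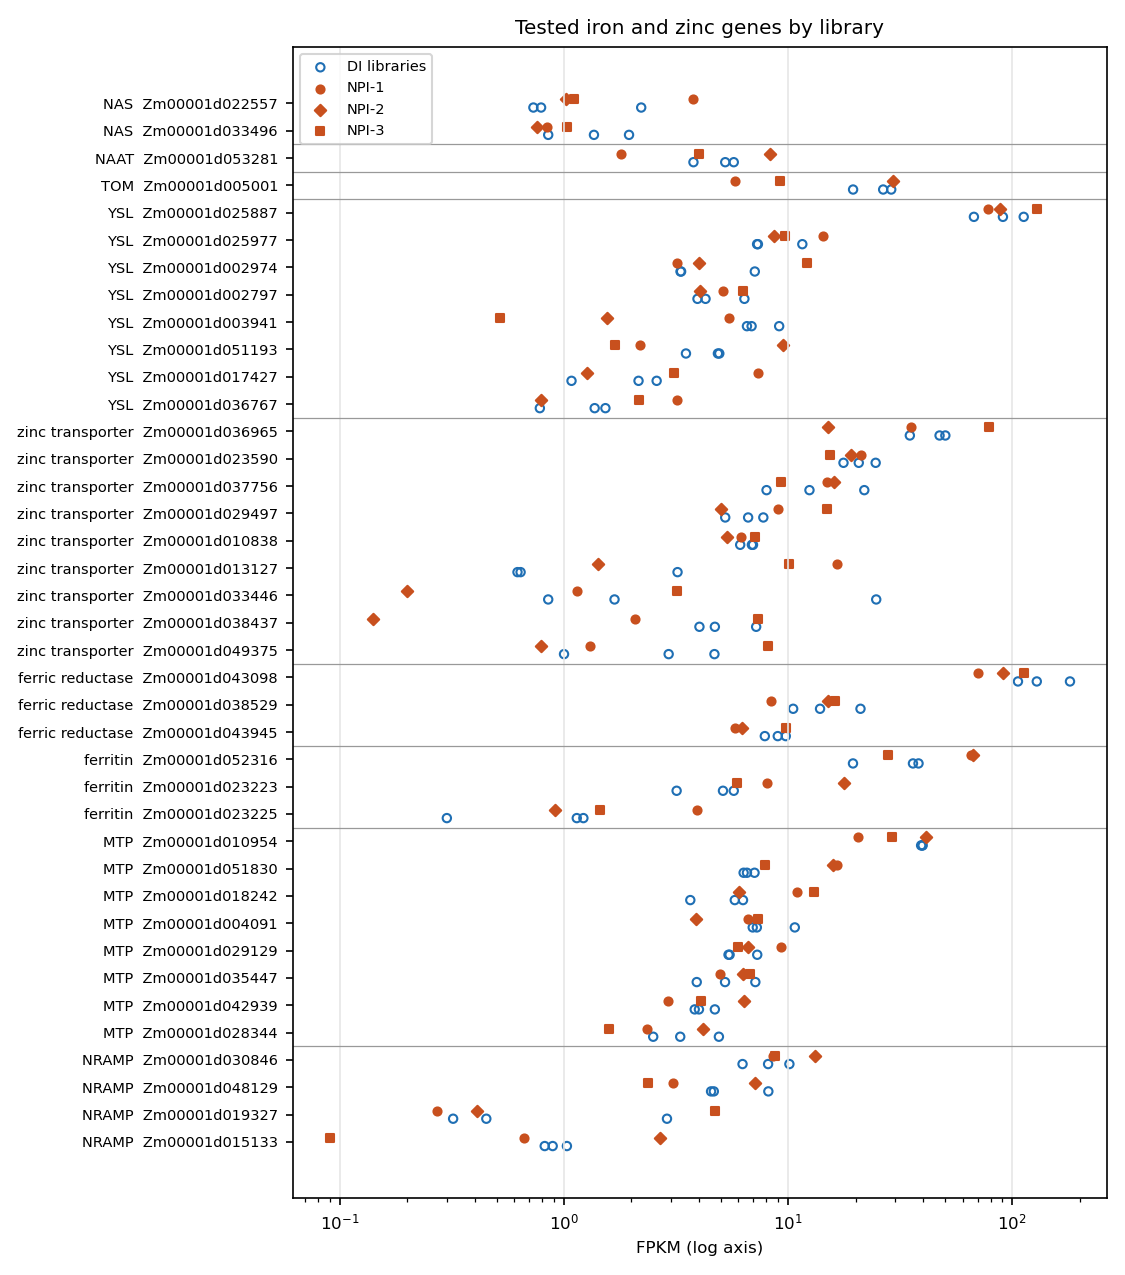
FPKM on a log axis of the 39 tested iron and zinc genes (rows, grouped by role) in each library, with open circles for the 3 DI libraries and filled symbols for NPI-1, NPI-2 and NPI-3. The groups are separate in 3 rows, those of YSL6 (Zm00001d003941), ferritin-2 (Zm00001d023223) and MTP C2 (Zm00001d051830), and overlap in the others.

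The first enzymes of the chelator pathway were barely expressed. Nicotianamine synthase joins units of S-adenosylmethionine into nicotianamine, and 8 of its 10 genes stayed below 1 FPKM in every library. Nicotianamine synthase1 (Zm00001d047651) had no count in any library, nor did the gene described as probable nicotianamine synthase 4 (Zm00001d012829). The others of the 8 had at most 51 counts in a library, a value reached by nicotianamine synthase6 (Zm00001d047639) in NPI-2. Pairs of these low synthases lie near each other: nicotianamine synthase9 and nicotianamine synthase2 are 68.7 kb apart on chromosome 1, and nicotianamine synthase8 and nicotianamine synthase10 are 75.8 kb apart on chromosome 9. Reads of such similar copies can be split or lost in counting, so their low values carry that uncertainty.

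The 2 synthases with measurable transcripts were weak. Nicotianamine synthase5 (Zm00001d022557, chromosome 7, 179964493 to 179965584) had 3.77, 1.02 and 1.11 FPKM in NPI-1 to NPI-3 and 0.73, 2.21 and 0.79 in DI-1 to DI-3. NPI-1 alone stood high, DI-2 came next, and the log2 difference of 0.75 (SE 0.746, edgeR adjusted p = 0.595) turned to -0.13 without NPI-1. Nicotianamine synthase 3 (Zm00001d033496, chromosome 1, 264462071 to 264463236) had 0.84, 0.76 and 1.03 FPKM in NPI and 1.95, 1.36 and 0.85 in DI. Its groups overlapped through DI-3 (log2 difference -0.58, SE 0.543, edgeR adjusted p = 0.573). Its NPI mean of 0.877 FPKM was under the filter, so it was tested only through its DI levels.

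The measurable genes of the next step and of chelator release were highest in NPI-2. Nicotianamine aminotransferase1 (Zm00001d053281, chromosome 4, 223892837 to 223896295), which turns nicotianamine towards deoxymugineic acid, had 1.8, 8.31 and 4.01 FPKM in NPI-1 to NPI-3 and 5.72, 3.78 and 5.24 in DI. The lowest and the highest of the 6 values were both from NPI, and the log2 difference was -0.05 (SE 0.5, edgeR adjusted p = 0.965), from -0.59 without NPI-2 to 0.33 without NPI-1. Transporter of mugineic acid3 (Zm00001d005001, chromosome 2, 153144332 to 153148743) belongs by name to a family whose rice member TOM1 exports deoxymugineic acid. It had 5.82, 29.5 and 9.21 FPKM in NPI and 28.84, 26.55 and 19.49 in DI. NPI-1 and NPI-3 lay below every DI library and NPI-2 above them all, giving a log2 difference of -0.75 (SE 0.528, edgeR adjusted p = 0.451). Without NPI-2 it fell by 1.57 on the log2 scale (edgeR adjusted p = 0.0407), the 1 member called in that fit, which called 6.65% of all tested genes higher and 5.19% lower. Transporter of mugineic acid1 (Zm00001d041111) had 4 counts in DI-2 and none elsewhere.

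Yellow stripe transporters formed the largest group, with 26 genes of which 8 were tested and 16 never reached 1 FPKM. The group was dominated by a single gene. Zm00001d025887, described as metal-nicotianamine transporter YSL7 (chromosome 10, 133094068 to 133097996), had 78.06, 88.48 and 128.95 FPKM in NPI and 90.87, 67.45 and 112.5 in DI. It ranked at the 95.4th percentile of tested genes by level, its groups overlapped throughout, and the log2 difference was 0.21 (SE 0.363, edgeR adjusted p = 0.776), or -0.12 without NPI-3. A second YSL7 gene, Zm00001d025888, begins 0.213 kb downstream on the same strand and never exceeded 0.31 FPKM, and the next, Zm00001d025889, lies 1.79 kb further on and never exceeded 0.05 FPKM.

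Yellow stripe1 itself lay just under the level needed for testing. The gene (Zm00001d017429, chromosome 5, 195832862 to 195835971), which carries iron-phytosiderophore complexes into the root, had 0.27, 0.18 and 0.43 FPKM in NPI and 1.47, 0.68 and 2.18 in DI, from 47, 34 and 78 counts and 235, 121 and 438 counts. Every NPI library was below every DI library, the sole case among the 39 untested members. Groups were separate downwards in 13.7% of all tested genes, and the share over all untested genes was not computed. Yellow stripe1 was singled out after its values were seen. With no filter on level, edgeR gave a log2 difference of -2.21 (SE 0.668, adjusted p = 0.184), in a fit that called 0.0393% of 33051 genes higher and 0.0151% lower. It did not pass.

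The neighbour of yellow stripe1 had the opposite sign. Zm00001d017427, described as metal-nicotianamine transporter YSL2 and 65.4 kb away on the same strand (chromosome 5, 195764467 to 195767455), had 7.32, 1.27 and 3.11 FPKM in NPI and 1.08, 2.15 and 2.59 in DI. NPI-1 and NPI-3 exceeded all DI libraries and NPI-2 did not (log2 difference 1.10, SE 0.685, edgeR adjusted p = 0.396; without NPI-2 1.54, adjusted p = 0.0895), and without NPI-1 the difference was 0.30.

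Among the other yellow stripe genes, 1 had separate groups. Zm00001d003941, described as metal-nicotianamine transporter YSL6 (chromosome 2, 70598355 to 70604588), had 5.44, 1.55 and 0.52 FPKM in NPI and 9.12, 6.87 and 6.55 in DI. All NPI values were lower and they differed widely among themselves, and the log2 difference of -1.54 (SE 0.748) had an edgeR adjusted p of 0.289. It was -2.87 without NPI-1 and -1.07 without NPI-3. A YSL7 gene on chromosome 4, Zm00001d051193 (148030454 to 148036401), had the pattern of transporter of mugineic acid3, with 2.18, 9.48 and 1.68 FPKM in NPI and 4.93, 4.86 and 3.5 in DI. Its log2 difference was -0.02 (SE 0.597, edgeR adjusted p = 0.988) and ran from -1.06 without NPI-2 (adjusted p = 0.0649) to 0.36 without NPI-3. The remaining 4 tested genes of the group had positive differences with edgeR adjusted p from 0.535 to 0.808. These were Zm00001d025977 and Zm00001d002797, both described as YSL2, with log2 differences of 0.39 and 0.17, Zm00001d036767, also YSL2, with 0.84 from no more than 83 counts in a library, and the YSL7 gene Zm00001d002974, with 0.61. Of these, Zm00001d002797 and Zm00001d002974 took the opposite sign without NPI-3, at -0.08 and -0.36.

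**Figure D2:**
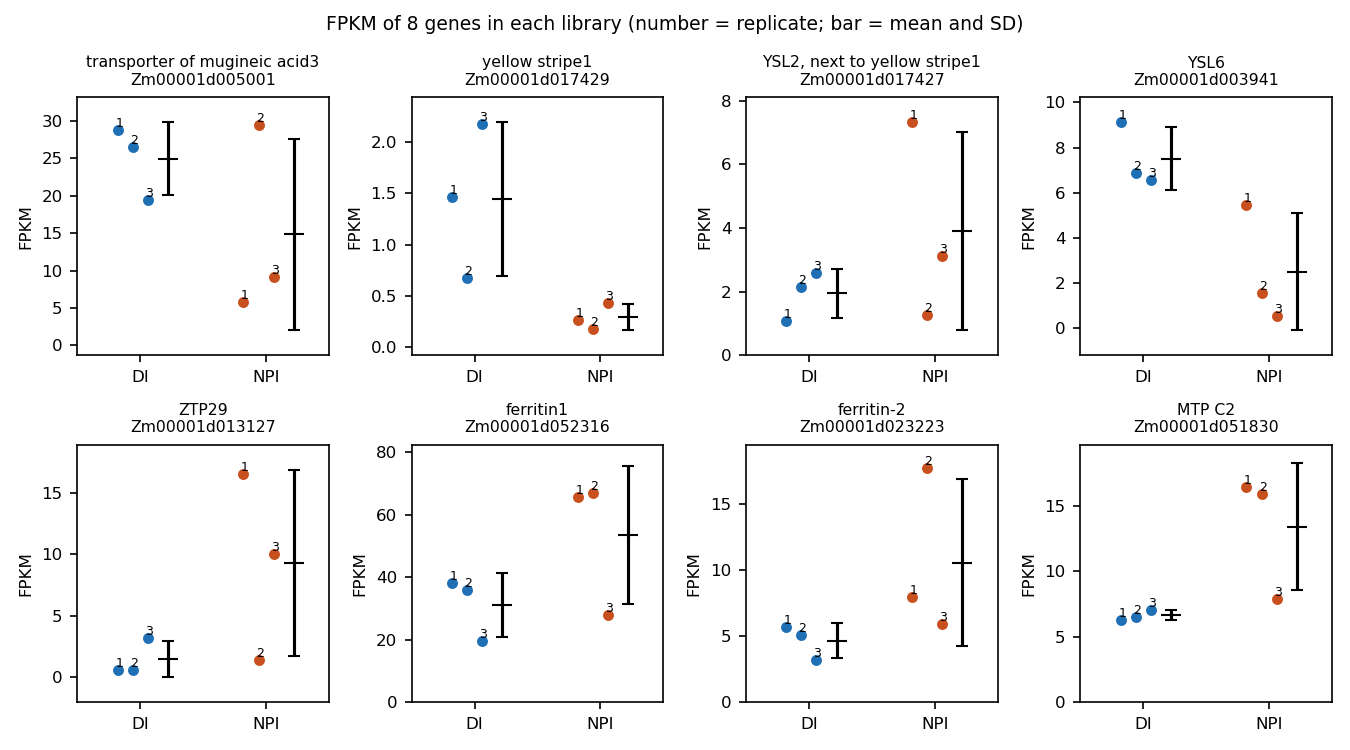
FPKM in each library (points, numbered by replicate) with the group mean and SD (bar) for 8 iron and zinc genes under DI and NPI. Transporter of mugineic acid3 has NPI-2 at 29.5 FPKM, level with DI, beside 5.82 and 9.21 in the other NPI libraries, whereas yellow stripe1, YSL6, ferritin-2 and MTP C2 have separate groups.

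Zinc transporters of the ZIP type bring zinc into the cytosol, and 9 of the 14 genes in this group were tested, 4 with positive and 5 with negative differences. One of the 14, Zm00001d042558, is described as the TPR repeat protein ZIP4, a name also given to a meiotic protein in rice, and was untested. The gene of smallest p was Zm00001d013127, described as zinc transporter ZTP29 after an Arabidopsis protein of the endoplasmic reticulum (chromosome 5, 5181668 to 5187630). It had 16.49, 1.42 and 10.04 FPKM in NPI and 0.64, 0.62 and 3.21 in DI. NPI-1 and NPI-3 were the highest libraries, NPI-2 lay within the DI range, and the log2 difference was 2.74 (SE 1.04, edgeR adjusted p = 0.205; without NPI-2 3.26, adjusted p = 0.0518). It was 4.0 without DI-3 and 2.1 without NPI-1. DESeq2 called it higher (adjusted p = 0.029).

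The most abundant zinc transporters showed no common direction. Zinc transporter 4 (Zm00001d036965, chromosome 6, 107624423 to 107627557) had 35.27, 15.04 and 78.8 FPKM in NPI and 50.29, 47.39 and 34.92 in DI. NPI held both its lowest and its highest value (log2 difference 0.11, SE 0.604, edgeR adjusted p = 0.937), and the sign turned without NPI-3, at -0.78, and without DI-3, at -0.03. The putative zinc transporter Zm00001d023590 was steadier, with 21.11, 19.14 and 15.41 FPKM in NPI and 24.58, 20.66 and 17.66 in DI (log2 difference -0.12, SE 0.238, edgeR adjusted p = 0.813; 0.01 without DI-1).

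Single libraries set the extreme values of this family. Zinc transporter 7 (Zm00001d033446, chromosome 1, 262975467 to 262977654) had 24.72 FPKM in DI-3, beside 0.85 and 1.68 in the other DI libraries and 1.14, 0.2 and 3.18 in NPI. Its log2 difference of -2.45 (SE 1.46, edgeR adjusted p = 0.378) became 0.44 without DI-3. DI-3 was also the sole library with more than 16 counts of the zinc transporter 2 gene Zm00001d041959, at 130. Zinc transporter 3 genes were lowest in NPI-2 and highest in NPI-3: Zm00001d038437 had 0.14 and 7.33 FPKM there and Zm00001d049375 0.79 and 8.13, and these were named after their values were seen.

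Ferric reductases reduce chelated iron, and the 3 tested genes so named or described had negative differences. The gene named ferric-chelate reductase (NADH)1, described as a cytochrome b5 reductase (Zm00001d043098, chromosome 3, 189164370 to 189168123), was the most abundant member of all. It had 70.42, 90.69 and 112.52 FPKM in NPI and 180.99, 106.06 and 128.68 in DI. NPI-3 overlapped the DI range (log2 difference -0.53, SE 0.344, edgeR adjusted p = 0.418). Ferric-chelate reductase (NADH)2 (Zm00001d038529) had 8.37, 15.13 and 16.15 FPKM in NPI and 21.03, 13.88 and 10.53 in DI, with a log2 difference of -0.13 (SE 0.374, edgeR adjusted p = 0.876) that turned to 0.12 without NPI-1 and 0.19 without DI-1. Zm00001d043945, described as of the cytochrome b561/ferric reductase family, had -0.20 (SE 0.365, edgeR adjusted p = 0.791). The gene described as a ferric reduction oxidase, Zm00001d003559, was untested. With no filter on level, edgeR gave it a positive log2 difference of 0.74 (SE 0.979, adjusted p = 0.716).

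Ferritins hold iron in plastids, and all 3 members of this group had positive differences. Ferritin1 (Zm00001d052316, chromosome 4, 186976119 to 186978547) had 65.61, 66.96 and 27.98 FPKM in NPI and 38.18, 36.06 and 19.47 in DI. NPI-1 and NPI-2 exceeded every DI library, while NPI-3 lay between DI-2 and DI-3 (log2 difference 0.81, SE 0.382, edgeR adjusted p = 0.274). Ferritin-2 (Zm00001d023223, chromosome 10, 823878 to 825894) had 8.01, 17.75 and 5.93 FPKM in NPI and 5.72, 5.12 and 3.18 in DI. Its groups did not overlap, though NPI-3 and DI-1 were close (log2 difference 1.19, SE 0.436, edgeR adjusted p = 0.195; without NPI-2 0.72, adjusted p = 0.197).

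The last gene of that group is a doubtful ferritin. Zm00001d023225 is named ferritin homolog2 but described as a trichome birefringence-like protein, and it lies 0.477 kb from ferritin-2 on the same strand, where reads of neighbouring genes may be shared. It had 3.93, 0.91 and 1.44 FPKM in NPI and 1.14, 1.22 and 0.3 in DI (log2 difference 1.33, SE 0.771, edgeR adjusted p = 0.363), so its highest NPI library was NPI-1 where that of ferritin-2 was NPI-2. Its DI mean of 0.887 FPKM was under the filter, so it was tested only through its NPI levels. It was picked for naming with its values known.

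Metal tolerance proteins, cation diffusion facilitators that move zinc or manganese out of the cytosol, included the member of smallest p. Metal tolerance protein C2 (Zm00001d051830, chromosome 4, 171484288 to 171486906) had 16.48, 15.93 and 7.88 FPKM in NPI and 6.33, 6.55 and 7.08 in DI, or 13.4 ± 4.81 and 6.65 ± 0.386 FPKM (SD, n = 3 each). All NPI libraries were above all DI libraries, NPI-3 by a small margin, and the log2 difference was 1.05 (SE 0.306, edgeR adjusted p = 0.141). DESeq2 called it higher (adjusted p = 0.0313), and without NPI-2 edgeR gave 0.99 with adjusted p = 0.0903.

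The rest of that family split. Metal tolerance protein A2 (Zm00001d010954, chromosome 8, 134898932 to 134900131), its most abundant gene, had 20.41, 41.34 and 29.15 FPKM in NPI and 39.61, 39.82 and 39.21 in DI. The DI libraries were within 1 FPKM of each other and NPI lay on both sides (log2 difference -0.34, SE 0.269, edgeR adjusted p = 0.507). Putative metal tolerance protein C3 was represented by a pair of tested genes with opposite signs, Zm00001d018242 at 1.03 (SE 0.434, edgeR adjusted p = 0.239; without NPI-2 1.33, adjusted p = 0.0527) and Zm00001d028344 at -0.39 (SE 0.446, edgeR adjusted p = 0.645), both named after their values were seen. Of the 8 tested genes, 5 had positive and 3 negative differences.

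NRAMP transporters gave no separate groups. Metal transporter Nramp3 is named after an Arabidopsis protein that releases iron from the vacuole, and of its 3 genes Zm00001d033367 had no count. Zm00001d030846 had 8.59, 13.17 and 8.76 FPKM in NPI and 10.13, 8.14 and 6.26 in DI (log2 difference 0.36, SE 0.27, edgeR adjusted p = 0.478). Zm00001d048129 had 3.05, 7.08 and 2.37 FPKM in NPI and 4.66, 4.53 and 8.16 in DI (log2 difference -0.47, SE 0.439, edgeR adjusted p = 0.573; without NPI-2 -0.96, adjusted p = 0.126). In both genes NPI-2 was the highest NPI library. Of the 5 Nramp6 genes, 2 were tested, with edgeR adjusted p of 0.787 and 0.899.

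**Figure D3:**
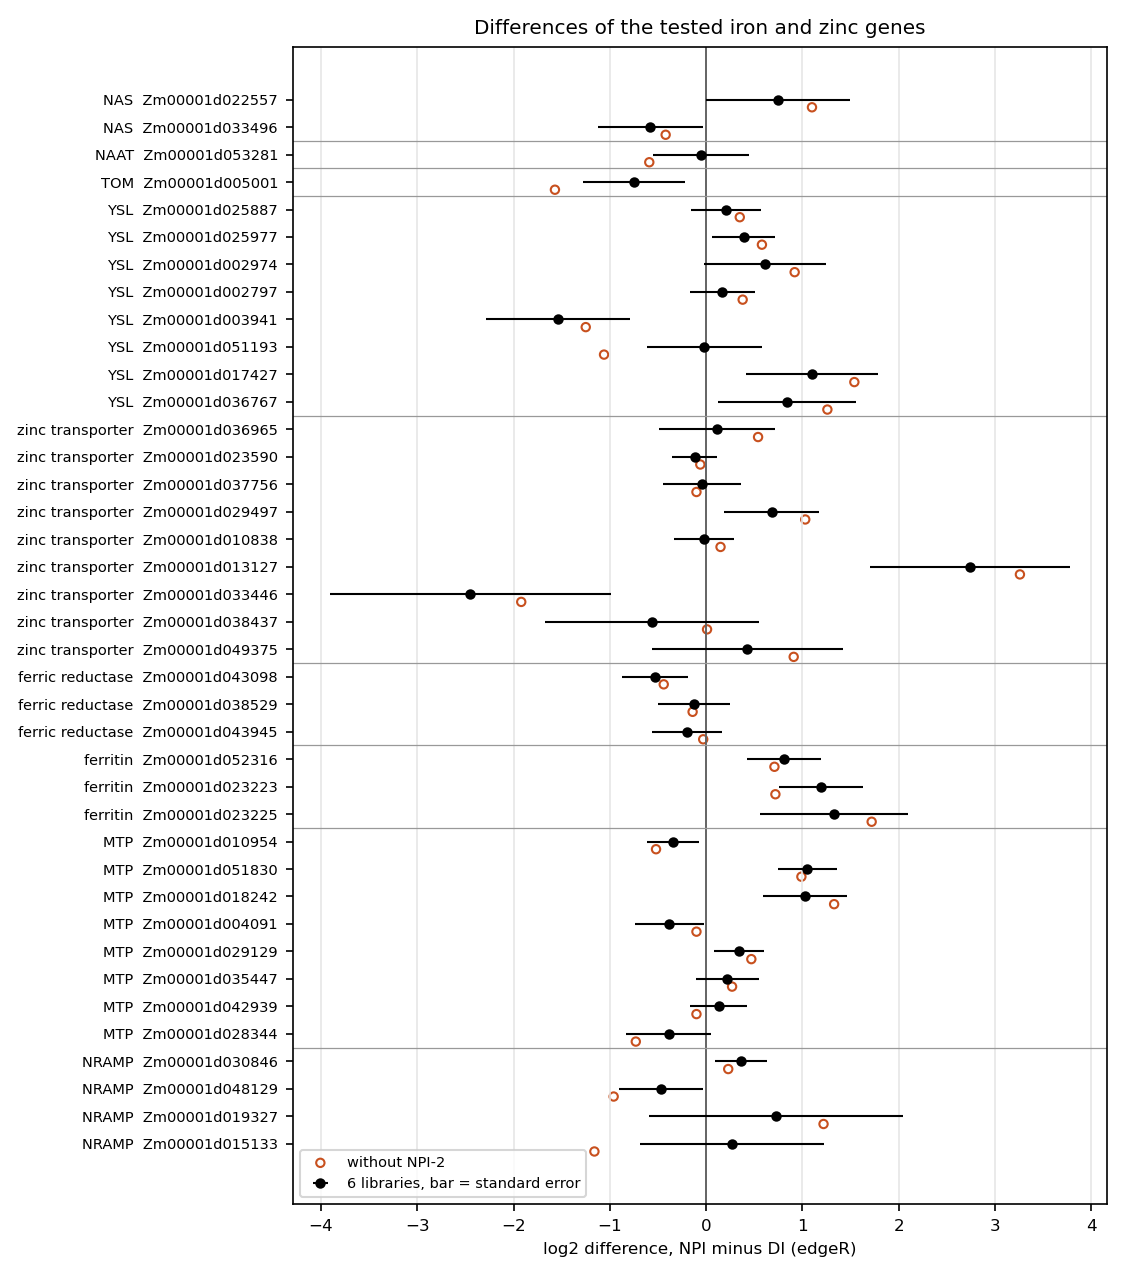
Log2 difference, NPI minus DI, of the 39 tested iron and zinc genes from edgeR (black points, with standard error bars) and the same difference without NPI-2 (open circles). Values run from -2.45 to 2.74 and none of the black points passed the threshold, and the open circle of transporter of mugineic acid3, at -1.57, is the single one that did.

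Genes around the pathway were counted by pattern. The methionine and S-adenosylmethionine cycle, which feeds nicotianamine synthesis, had 18 tested genes of 21, with 10 positive differences, a median of 0.21 and 0 past the threshold in edgeR. Its groups were separate upwards in 3 genes (16.7%, beside 13.0% of all tested genes) and downwards in 2 (11.1%, beside 13.7%). Genes that use iron, such as ferredoxins and iron-sulfur assembly factors, had 57 tested genes, 25 positive, a median of -0.04 and 0 past the threshold, with groups separate upwards in 10 (17.5%) and downwards in 10 (17.5%). Organic acid and MATE efflux genes had 13 tested genes, 8 positive, with a median of 0.05, 0 past the threshold, and groups separate upwards in 3 (23.1%) and downwards in 1 (7.69%). That pattern was narrowed to MATE as a word, since its first form also took in glutamate and chorismate enzymes (75 tested genes, median 0.03). The 3 tested genes of the regulator pattern, 2 hemerythrin genes and a RING and CHY zinc finger gene, had edgeR adjusted p from 0.545 to 0.985. The bHLH gene Zm00001d004007, described as FER-LIKE IRON DEFICIENCY-INDUCED TRANSCRIPTION FACTOR and outside the pattern, had 2.24, 7.14 and 15.08 FPKM in NPI, below and above the 6.98, 7.77 and 8.14 of DI.

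Other genes of metal transport and binding had mostly positive differences, although 0 of 50 tested genes passed in edgeR. Of these, 43 were positive (86%, beside 54% of all tested genes), with a median log2 difference of 0.82 (0.07 over all tested genes), and groups were separate upwards in 15 (30%, beside 13.0%) and downwards in 1 (beside 13.7%). The medians by library were 1.1, 0.4 and 0.66 in NPI-1 to NPI-3. Zm00001d005715, Zm00001d026298, Zm00001d029716, Zm00001d036010 and Zm00001d050277 had DI means under the filter of 1 FPKM. They were tested only through their NPI levels, so the filter favoured their positive differences. No gene of the list had an NPI mean under it. Heavy metal-associated domain proteins made up 27 of the 50 genes, with 25 positive and 8 of the 15 groups separate upwards. Differences were less uniformly positive among oligopeptide transporters (5 of 7 positive, median 0.15) and copper transporters (1 of 2 positive). These classes are small and were not compared by a test. Without NPI-2, edgeR called 10 of the 50 higher (20%, beside 6.65%) and 0 lower (beside 5.19%). Leaving NPI-2 out favours larger differences, so this fit, here and for the genes below, is a description and not separate support. The list itself was chosen with earlier results of these data known. With all libraries, DESeq2 called 11 higher (22%, beside 6.84%) and 1 lower (2%, beside 4.53%). The list's transcripts were short, with a median of 0.705 times that of the median tested gene, and all tested genes in the length class that holds this value had a median log2 difference of 0.18. The part of transcript length in the list's differences was not tested.

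Metallothioneins, small cysteine-rich metal binders, made up the larger part of the list's summed FPKM in each NPI library. Their 9 genes summed to 2430, 1090 and 1640 FPKM in NPI and 425, 699 and 913 in DI, and 8 had positive differences. Their transcripts were shorter still, with a median of 0.456 times that of the median tested gene. All tested genes in the length class that holds 0.456 had a median log2 difference of 0.32, and the part of length was not tested. The genes of the list given here were named after their values were seen. The most abundant in NPI was metallothionein-like protein 2C, Zm00001d035662, with 1372.86, 496.48 and 858.15 FPKM in NPI and 88.53, 301.82 and 276.46 in DI (log2 difference 2.13, SE 0.601, edgeR adjusted p = 0.134; without NPI-2 2.46, adjusted p = 0.0413; DESeq2 adjusted p = 0.00427). Other 2C genes may share its reads. Metallothionein-like protein 1, Zm00001d029546, had 14.33, 5.21 and 47.63 FPKM in NPI and 34.56, 36.49 and 200.61 in DI, with overlapping groups and DI-3 the highest library (log2 difference -1.87, SE 1.03, edgeR adjusted p = 0.338).

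A vacuolar iron transporter and a zinc pump were among the 15 genes of the list with groups separate upwards. Vacuolar iron transporter 1 (Zm00001d005715, chromosome 2, 184452989 to 184461356), of a family that loads iron into vacuoles, had 537, 319 and 624 counts in NPI and 0, 0 and 21 in DI. Its levels were 4.9, 2.68 and 5.4 FPKM in NPI and 0, 0 and 0.16 in DI, with every NPI library above every DI library (edgeR adjusted p = 0.108; without NPI-2 adjusted p = 0.0452; DESeq2 adjusted p = 4.38e-05). Its DI mean of 0.0533 FPKM was under the filter, so it was tested only through its NPI levels. The cadmium/zinc-transporting ATPase HMA2 gene (Zm00001d014669), whose Arabidopsis namesake exports zinc towards the xylem, had 21.02, 15.43 and 8.3 FPKM in NPI and 3.5, 4.21 and 3.84 in DI. All NPI values were above DI (log2 difference 2.00, SE 0.338, edgeR adjusted p = 0.0716; without NPI-2 2.04, adjusted p = 0.0319; DESeq2 adjusted p = 1.49e-05). The chloroplastic HMA1 gene Zm00001d014569 was the reverse, with 5.32, 6.46 and 5.52 FPKM in NPI and 11.38, 11.89 and 8.42 in DI (log2 difference -0.81, SE 0.233, edgeR adjusted p = 0.139; DESeq2 adjusted p = 0.0308).

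**Figure D4:**
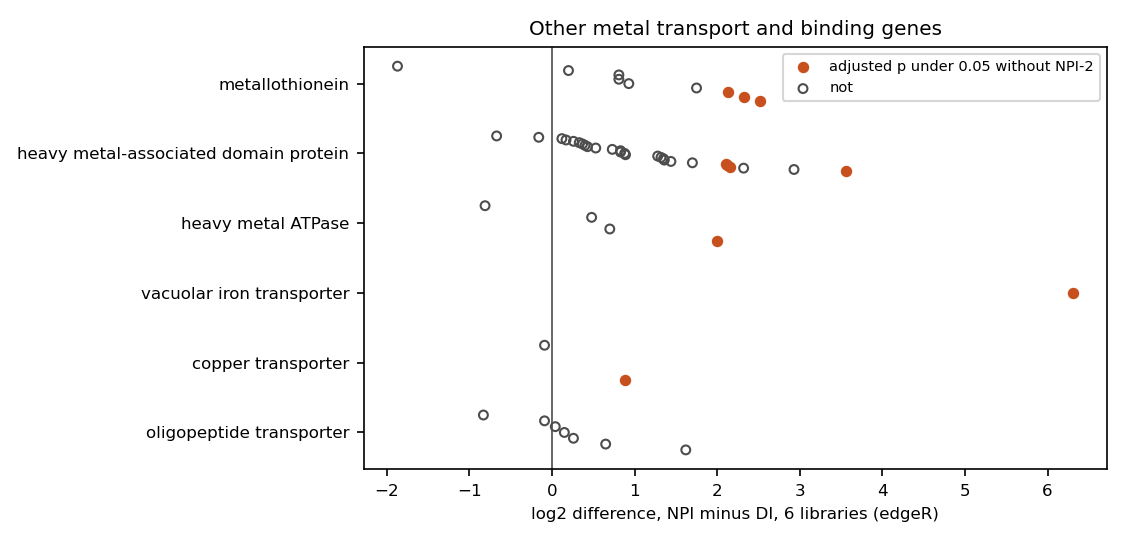
Log2 difference, NPI minus DI, of the 50 tested genes of other metal transport and binding by class (rows), from edgeR on 6 libraries, with filled points for genes past an adjusted p of 0.05 when NPI-2 was left out. Of the 50 points 43 lie to the right of 0, and the filled ones, 10 in all, do too. Leaving out NPI-2 favours larger differences, so the filling is a description and not separate support.

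By annotation, 63 of the 78 members carried the term integral component of membrane, 41 plasma membrane, 18 zinc ion transmembrane transport, 10 nicotianamine synthase activity and 6 siderophore-dependent iron import. Of those with the zinc transport term 13 were tested, whereas of the nicotianamine synthase genes 2 were.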

How the data were processed

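Poly(A) RNA of 6 maize root tip libraries was sequenced as read pairs, per the labels' protocols. FastQC 0.10.1 and HISAT2 2.0 are named in the submitters' processing notes, as are StringTie 1.3.4 and edgeR with no version, and the genome build and strand setting are not given in the sources used here. The authors deposited estimated counts, which are whole numbers, and FPKM per gene. Coordinates are those of the deposited table. Sequences and promoter motifs were not analysed here.

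From the counts, edgeR 4.0.16 (R 4.3.3; quasi-likelihood with TMM, two-sided, Benjamini-Hochberg over the 21902 of 45953 genes with mean FPKM of at least 1) gave the log2 differences, NPI minus DI, and the standard error is the difference over the root of F. With 3 libraries against 3 an exact permutation test cannot go below p = 0.1. DESeq2 1.42.0 and limma 3.58.1 were alternatives. The fits were tested on simulated data. Figures used matplotlib 3.10.9.

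Members and lists were chosen with earlier results of these data known. Named genes are, per role, the 2 most abundant tested members, the higher and the lower of smallest p, and all tested synthesis and yellow stripe genes. Others were named after their values were seen, as were the untested genes described as neighbours or by their counts. The filter was on the mean over all libraries, and 3 tested members had a group mean below it. The labels do not say that same-numbered libraries were paired, and the description of DI-2 gives it the repeat number of DI-3, so titles were used. Deviations of same-numbered libraries correlated at -0.279, 0.2 and 0.199, which does not exclude pairing. No block was used in the main fit.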

Additional observations from a re-analysis of the deposited data

How the results depend on the processing

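Counts of members past the threshold were 0 higher and 0 lower in edgeR, and stayed so with other scaling factors, the newer quasi-likelihood estimate, robust moderation, other filters and limma. DESeq2 gave 2 higher. Leaving out single libraries gave 0 to 0 higher and 0 to 1 lower, the 1 without NPI-2. DESeq2 without NPI-2, chosen after seeing the data as was the newer estimate, gave 5 higher (12.8%, beside 15.6% of all tested genes) and 2 lower (5.13%, beside 15%). Over all tested genes, where edgeR called 2 higher and 1 lower, the calls were 1499 and 992 in DESeq2, 1457 and 1136 without NPI-2, 99 and 39 in limma with a pseudocount of 1, 99 and 30 with 0.1, 17 and 9 with the newer estimate, 13 and 5 without the filter and 12 and 4 with upper quartile factors, 3410 and 3295 in DESeq2 without NPI-2, and 0 to 1 and 0 to 2 without another single library. A fit with the replicate block called 0 members in either direction and, over all tested genes, 1 higher and 0 lower, and of the NPI libraries NPI-3 alone correlated best with its own number (0.199).

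Of 24 named genes, 14 kept their sign in all 17 alternatives. The other 10 had these leave-one-out ranges: Zm00001d002797 -0.08 to 0.44, Zm00001d002974 -0.36 to 1.1, Zm00001d022557 -0.13 to 1.42, Zm00001d023590 -0.23 to 0.01, Zm00001d025887 -0.12 to 0.41, Zm00001d033446 -3.74 to 0.44, Zm00001d036965 -0.78 to 0.54, Zm00001d038529 -0.38 to 0.19, Zm00001d051193 -1.06 to 0.36 and Zm00001d053281 -0.59 to 0.33. Zm00001d036965 was also negative in limma with pseudocounts of 1 (-0.31) and 0.1 (-0.33) and with the replicate block (-0.28), and Zm00001d051193 was 0.03 with upper quartile factors. The cause was not tested. Depth limits the genes under 100 counts, among them Zm00001d036767.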
